A study of Mus musculus with 108 samples.

Results

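RNA was measured here in single mouse oocytes at the germinal vesicle (GV) stage, before meiotic resumption, in 2 kinds of library. The polyA libraries start from RNA caught on oligo(dT) beads. The RiboMinus libraries are primed with random hexamers and do not depend on a poly(A) tail. The question is whether the polyA-to-RiboMinus ratio of each gene differed between oocytes that had lost Exosc10 (cKO, a knockout specific to oocytes) and control oocytes. All 37 GV gene libraries of the 108 samples in the series were used: 15 cKO and 7 control oocytes in the polyA libraries, and 7 cKO and 8 control oocytes in the RiboMinus libraries. GV oocytes of both genotypes were kept in M2 medium outside the body. The Cre line behind the knockout, the strain and the age of the females are not given in the sources used here. Each genotype was represented by 2 females per library type, 8 females in all: V857 and V888 (polyA cKO), V856 and V889 (polyA control), V1126 and V1131 (RiboMinus cKO), and V1132 and V1133 (RiboMinus control). No oocyte and no female was measured both ways.

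EXOSC10 is a 3′-to-5′ exoribonuclease of the nuclear RNA exosome. The complex trims the 3′ ends of small nucleolar RNAs (snoRNAs) and ribosomal RNA precursors and degrades many nuclear transcripts, and short poly(A) tails added in the nucleus can mark its substrates. A growing oocyte stores maternal mRNAs, many with short tails, so oligo(dT) capture and random priming can report different parts of the same RNA pool. Most mitochondrial mRNAs also carry short poly(A) tails, which are added inside the organelle.

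The measure for each gene is the log2 fold change of cKO over control in polyA libraries minus the log2 fold change in RiboMinus libraries, called the ratio difference below. A positive value means a higher polyA-to-RiboMinus ratio in cKO oocytes. Counts were summed per female, and a gene was called when the Benjamini-Hochberg adjusted p of edgeR's quasi-likelihood test was under 0.05. CPM is the count relative to the library total after scaling by TMM, edgeR's trimmed mean of M-values.

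The box C/D snoRNAs Snord118 and Snord13 carry no poly(A) tail in their mature form and were read in polyA libraries of cKO oocytes. The sequence of Snord118 is shown first for that reason. Snord118 (U8) is needed for the maturation of the large-subunit rRNAs, and Snord13 (U13) for acetylation of the small-subunit rRNA. Snord118 lies on the + strand at chr11:69073427-69073561 and is annotated as a snoRNA gene in GENCODE M21 (mm10). Capitals mark the letters TGATGA (within the C box) and each of its 3 words CTGA (the letters of a D box) on the transcript strand. A mature box C/D snoRNA has its D box near the 3′ end. The inner CTGA words are marked by their letters, and whether they have a role was not tested. Of 99 Snord transcripts in that annotation, 75 (75.8%) hold both words.
Snord118: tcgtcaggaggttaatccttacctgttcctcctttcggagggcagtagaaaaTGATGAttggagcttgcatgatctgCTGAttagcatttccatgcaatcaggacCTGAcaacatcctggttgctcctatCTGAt
The longest run of A in its 135 bases is 4 bases.

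The mRNAs with the smallest p on the opposite side were Swi5, a factor of homologous recombination, and Pttg1, securin, which holds separase inactive until anaphase. For each, the last 30 bases are shown of an annotated transcript that was chosen for holding a poly(A) signal near its end. Capitals mark the signal AATAAA, which 35.5% of 58784 protein-coding transcripts hold in their last 30 bases. Swi5 lies at chr2:32278816-32288075 and Pttg1 at chr11:43420250-43426251, both on the - strand.
Swi5: tcccttttgttAATAAAcatatgagcagtc
Pttg1: gtattAATAAAgcatttgtgcatatgttca

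Gene counts ranged from 5381816 to 7727869 per polyA oocyte and from 12319658 to 23414673 per RiboMinus oocyte. Reads outside genes made up 8.34% to 14.2% of each library. Libraries stood apart within the cKO groups. On the first principal component of the RiboMinus oocytes (65.9% of variance), 5 cKO oocytes lay between -0.42 and -0.26, but V1126_2 (0.05) and V1126_3 (0.19) lay near the controls (0.12 to 0.27). On that of the polyA oocytes (41.9%), cKO oocytes of V857 lay between -0.32 and -0.23, those of V888 between -0.29 and 0.11, and controls between 0.16 and 0.31. Results that rest on V1126_2 and V1126_3 are therefore also given without them, an alternative chosen after the data were seen. These oocytes were picked because they lay near the controls, so leaving them out raises the RiboMinus genotype contrast by construction.

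Exosc10 matched the label of each oocyte in both library types. In polyA controls it ranged from 46.1 to 59.9 CPM (median 51.1), and in polyA cKO oocytes from 0.0 to 3.43 CPM (median 0.996). In RiboMinus controls it ranged from 101 to 175 CPM (median 140), and in RiboMinus cKO oocytes from 0.884 to 8.68 CPM (median 4.22). The genotypes did not overlap in either type. Exosc10 fell by 5.52 on the log2 scale in polyA and by 5.34 in RiboMinus libraries (edgeR adjusted p 4.4e-05 and 4.7e-05). Its ratio difference was -0.18 (SE 0.63, 95% interval -1.50 to 1.14, edgeR adjusted p 1.0).

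Across the transcriptome the ratio difference was called for 1 of 22201 genes tested (0.0045%), the predicted gene Gm10801, which was higher. None was called lower (0.0%), and 539 genes (2.43%) had an unadjusted p under 0.05, 202 higher (0.91%) and 337 lower (1.52%). The same females and fit called many genes within each library type. In polyA libraries 969 genes were called (4.36%), 456 higher (2.05%) and 513 lower (2.31%) in cKO oocytes. In RiboMinus libraries 671 were called (3.02%), 496 higher (2.23%) and 175 lower (0.788%). These counts rest on the spread shared over 23 females. With only the 8 GV females, polyA libraries called 2 genes, RiboMinus libraries 5 and the ratio difference 0. The polyA count was 4, 64, 257 and 642 when V889, V856, V857 or V1132 was left out. The RiboMinus count was 3, 9 and 11 without V1133, V1132 or V1131, and 2115 without V1126. The median ratio difference over all genes was 0.00. With scaling by library totals the split moved to 738 higher of 906 called in polyA and 815 higher of 941 in RiboMinus libraries, and the median ratio difference moved to 0.11. Without V1126_2 and V1126_3, 3742 genes were called in RiboMinus libraries, all 671 among them, and the ratio difference was called for 8 genes, 5 of them higher: Gm10801, Gm10800, Gm10717, Snord118 and mt-Tf were higher, and Swi5, Pttg1 and Gpx3 were lower.

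The 2 library types gave the genotype effect in the same direction for nearly all genes called in one of them. Of the 969 genes called in polyA, 960 (99.1%) had the same sign in RiboMinus, beside 76.2% of all genes tested, and 76 (7.84%) had an unadjusted p under 0.05 for the ratio difference. The 456 genes higher in polyA had a median log2 fold change of 2.49 in polyA and 2.02 in RiboMinus libraries. The 513 genes lower in polyA had medians of -1.10 and -0.79. Of the 671 genes called in RiboMinus, 645 (96.1%) had the same sign in polyA. The 496 higher ones had medians of 1.64 in polyA and 2.15 in RiboMinus, and the 175 lower ones -0.99 and -1.27. In each set the median was farther from 0 in the library type that chose the genes. For the 329 genes called in both, the median ratio difference was -0.04. Over the 9031 genes with a mean log2 CPM of at least 3, the 2 fold changes correlated across genes with Pearson's r of 0.85 and Spearman's rho of 0.82, and over all 22201 genes with 0.60 and 0.64. The library types share no females there, and genes are not independent replicates.

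**Figure D1:**
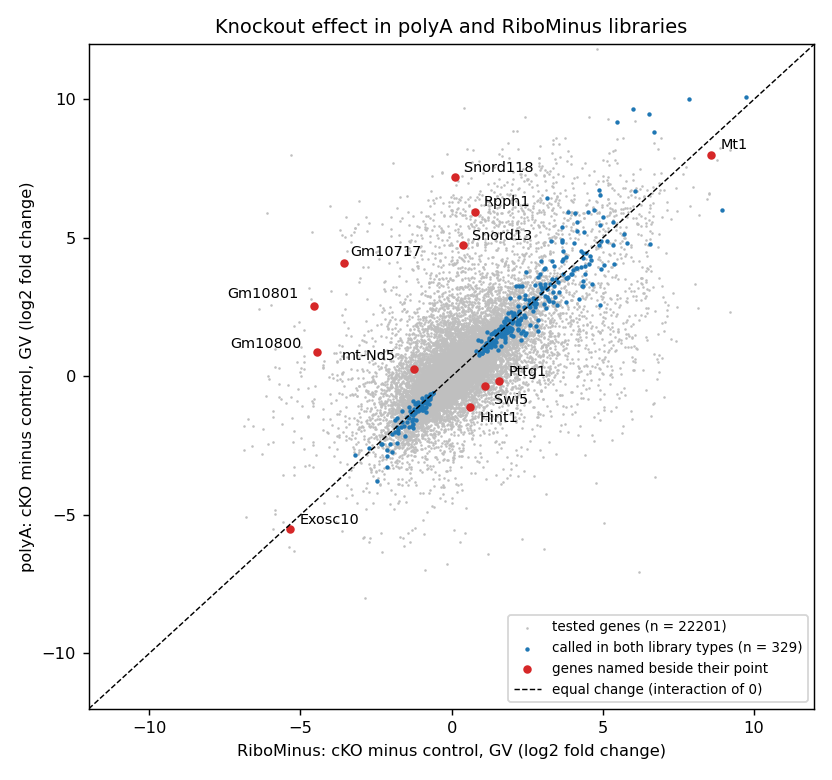
Log2 fold change of cKO over control in polyA libraries (vertical axis) against that in RiboMinus libraries (horizontal axis), 1 point per gene tested, with genes called in both library types in blue, named genes in red and a dashed line at equal fold changes. Named genes off the line are Gm10801 and its relatives to the left, Snord118 and Snord13 above, and Swi5 and Pttg1 below it.

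A missed call does not show that a ratio was alike. The ratio difference rests on 4 groups of 2 females, and its median SE was 0.87 on the log2 scale over all genes. For the 9031 genes with a mean log2 CPM of at least 3 the median SE was 0.40, and for 3691 of them (40.9%) the 95% interval lay within 1 log2 unit of 0. For the 13170 genes under that level the median SE was 1.53 and 28 genes had such an interval. For most low-level genes, a ratio difference of 2-fold was therefore not detectable at this depth and number of females.

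Metallothionein Mt1, a zinc-binding protein gene, shows how large a genotype effect could be with no call for the ratio. It ranged from 0.313 to 1.25 CPM (median 0.960) in polyA controls and from 136 to 356 CPM (median 205) in polyA cKO oocytes. In RiboMinus libraries it ranged from 0.0651 to 0.825 CPM (median 0.297) in controls and from 82.2 to 185 CPM (median 112) in cKO oocytes. The genotypes did not overlap in either library type. Mt1 rose by 8.004 in polyA and by 8.58 in RiboMinus libraries on the log2 scale (edgeR adjusted p 0.0059 and 0.0036), and its ratio difference was -0.58 (SE 1.62, adjusted p 1.0), between -0.92 and -0.30 when a female was left out. The other metallothionein, Mt2, was near the detection limit, with group medians of 0.0 to 0.351 CPM. Its fold changes were 5.42 in polyA and 0.54 in RiboMinus libraries, neither called, and its ratio difference was 4.88 (SE 2.44, unadjusted p 0.059).

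Snord118 was nearly absent from polyA libraries of controls and present in those of all cKO oocytes. Its polyA counts were 1 in total, in 1 of 7 control oocytes, and 461 in total, in 15 of 15 cKO oocytes. In CPM the controls ranged from 0.0 to 0.185 (median 0.0) and the cKO oocytes from 1.95 to 7.25 (median 4.68), without overlap. In RiboMinus libraries the controls ranged from 0.911 to 4.72 CPM (median 2.33) and the cKO oocytes from 2.21 to 3.12 CPM (median 2.83), so all cKO oocytes lay within the control range. The ratio of pooled polyA counts, cKO over control, was 196 (95% interval 35.0 to 7767, counting error only). Snord118 rose by 7.20 on the log2 scale in polyA libraries (edgeR adjusted p 0.0030), and its RiboMinus fold change was 0.13 (adjusted p 0.94). The ratio difference of 7.07 (SE 1.12, edgeR adjusted p 0.054) just missed the threshold. Without V1126_2 and V1126_3 it was 7.04 with an edgeR adjusted p of 0.036. It lay between 5.99 (without V889) and 10.11 (without V856) when a female was left out. These fitted fold changes depend on the prior count, since the controls held 1 read.

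Snord13 followed the same pattern at a lower level. Its polyA counts were 3 in 3 of 7 control oocytes and 196 in 15 of 15 cKO oocytes, a ratio of 27.8 (95% interval 9.38 to 136, counting error only). In polyA CPM the controls ranged from 0.0 to 0.185 (median 0.0) and the cKO oocytes from 0.142 to 6.53 (median 1.11). Of the 15 cKO oocytes 14 lay above all controls, and V857 averaged 3.20 CPM against 0.709 in V888. In RiboMinus libraries controls (0.929 to 6.04 CPM, median 2.48) and cKO oocytes (2.54 to 4.79 CPM, median 4.10) overlapped. Snord13 rose by 4.74 in polyA libraries (edgeR adjusted p 0.025), and its ratio difference of 4.37 (SE 1.34, unadjusted p 0.0042) was not called. It lay between 2.93 (without V857) and 8.905 (without V856) when a female was left out. Both snoRNAs were singled out after their values were seen.

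Rpph1, the catalytic RNA of ribonuclease P, is another RNA without a tail in its mature form. No polyA control oocyte held a read, and 12 of 15 cKO oocytes held 25 in total, at least 3.55-fold higher against a floor of 3 counts over the control group. In RiboMinus libraries the same RNA ranged from 33.8 to 99.9 CPM (median 45.9) in controls and from 36.5 to 175 CPM (median 76.6) in cKO oocytes, with 2 of 7 cKO oocytes above all controls. Rpph1 was called higher in polyA libraries (edgeR adjusted p 0.040), and its ratio difference had an unadjusted p of 0.0095 and was not called. Terc, the telomerase RNA, had 24 polyA counts in cKO and 0 in control oocytes (at least 3.41-fold). Snord17, a box C/D snoRNA, had 25 and 0 (at least 3.55-fold). Neither was called in polyA libraries.

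Of the snoRNA and small Cajal body RNA genes, 85 of 150 passed the filter on low counts. In polyA libraries 2 of the 85 were called higher, Snord118 and Snord13, near the 2.05% of all genes, and 0 lower. None was called in RiboMinus libraries, where the median log2 fold change was 0.03. The ratio difference had an unadjusted p under 0.05 for 6 of the 85, 3 higher and 3 lower (Snord4a, Snord33 and Snora62), and its median was 0.81 beside 0.00 for all genes. All 85 had a mean log2 CPM under 3, where the median over genes was 0.15. The snoRNA median changed sign over the settings tried (-0.49 to 1.80), so it gives no direction for the group. The 3 members with the highest levels gave these values. Snora47 overlapped in polyA libraries (0.469 to 3.15 CPM in controls, 0.512 to 2.91 CPM in cKO oocytes). Scarna13 had a ratio difference of 1.28 (SE 0.78, with 0.68 without V889 and 2.07 without V856). Snord15b had one of 3.55 (SE 2.02) with no polyA count in controls, and of 0.11 to 3.95 over the settings tried. Reads of a snoRNA inside an intron or exon of a host gene cannot be told apart from the host's, and Snora47, Scarna13, Snord15b and Rpph1 overlap another gene on the same strand.

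Among 27 tested host genes of snoRNAs, the polyA libraries called 2 higher (2.05% of all genes) and 0 lower, and the median ratio difference was 0.29. Snhg20, a noncoding host, had 175 polyA counts in cKO and 5 in control oocytes (ratio 14.9, 95% interval 6.26 to 46.5, counting error only). Its ratio difference was 4.18, with an unadjusted p of 0.0048. Of 15 tested structured and nuclear noncoding RNAs, Rpph1 was called in polyA libraries, and both annotated records of Rmrp, the RNA of RNase MRP, in RiboMinus libraries, all higher (2.05% and 2.23% of all genes). The Rmrp records overlap and stand for 1 RNA. They had RiboMinus log2 fold changes of 2.58 and 2.69 and ratio differences of -0.78 and -0.51. Without V1131 the ratio differences were -0.076 and 0.22, the second with a changed sign. The list's median ratio difference was 1.11 (0.29 to 1.99 over the settings tried), with 10 of 15 positive, 2 of 15 at an unadjusted p under 0.05 and 0 called. Malat1, the nuclear long noncoding RNA, had 1.08 (SE 0.93), and Rn7sk, the RNA of the 7SK particle, 1.11 (SE 0.64). Without V857 the value of Malat1 was 0.43, and without V1133 that of Rn7sk was 0.29.

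**Figure D2:**
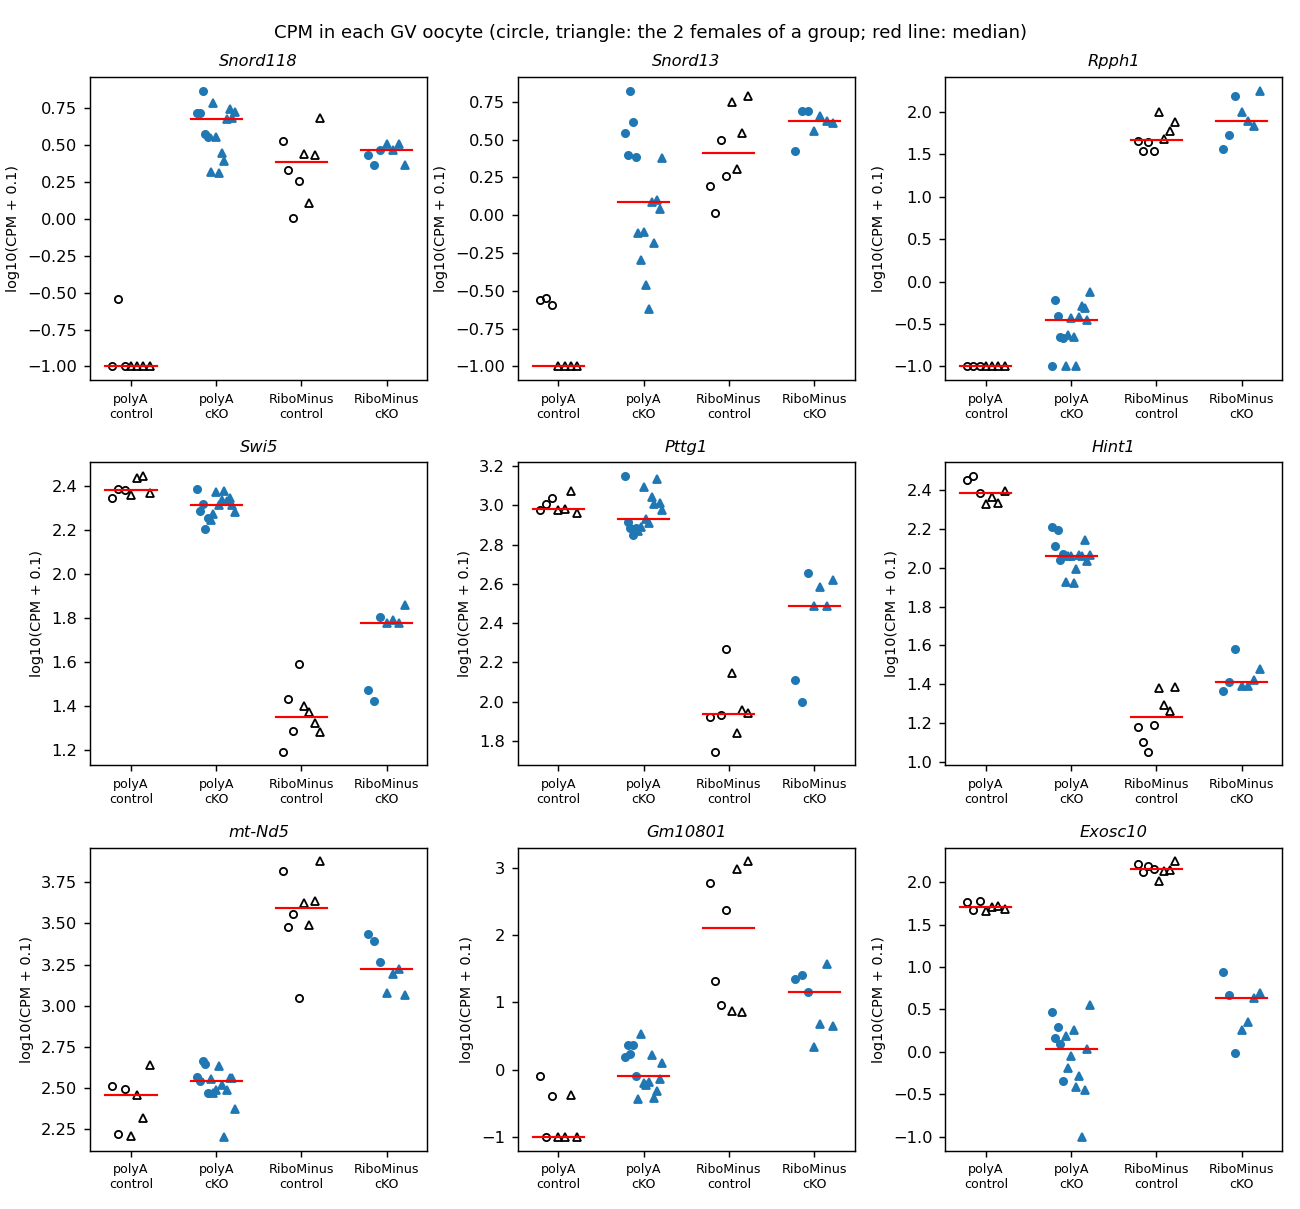
Expression per oocyte on a log10(CPM + 0.1) axis for 9 genes in the 4 GV groups, with circles and triangles for the 2 females of a group and a red line at the median. Snord118 separates the genotypes in polyA and not in RiboMinus libraries, and Swi5 and Pttg1 have 5 of 7 RiboMinus cKO oocytes above all controls.

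On the lower side no gene was called. The 10 genes of at least 3 mean log2 CPM with the smallest p were Swi5, Pttg1, Gpx3, Rnf141, Hint1, Cox6b2, Romo1, 1700001L05Rik, Pecr and Astl. Most had the wider gap between the genotypes in RiboMinus libraries, and a few had it in polyA libraries.

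Swi5 had it in RiboMinus libraries. In polyA libraries it ranged from 222 to 279 CPM (median 242) in controls and from 161 to 243 CPM (median 207) in cKO oocytes, with 11 of 15 cKO oocytes below all controls. In RiboMinus libraries it ranged from 15.4 to 38.8 CPM (median 22.2) in controls and from 26.3 to 72.2 CPM (median 59.7) in cKO oocytes. There 5 of 7 cKO oocytes lay above all controls, and the other 2 were V1126_2 (29.5 CPM) and V1126_3 (26.3 CPM). Swi5 rose by 1.10 in RiboMinus libraries (edgeR adjusted p 0.0040) with a polyA fold change of -0.35 (adjusted p 0.25). The ratio difference was -1.45 (SE 0.24, edgeR adjusted p 0.054), and -1.66 (edgeR adjusted p 0.0021) without V1126_2 and V1126_3, the 2 cKO oocytes within the control range. It lay between -1.69 (without V1126) and -1.15 (without V1131) when a female was left out.

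Pttg1 had the same shape. In polyA libraries controls ranged from 914 to 1186 CPM (median 955) and cKO oocytes from 707 to 1410 CPM (median 856.6). In RiboMinus libraries controls ranged from 55.4 to 186 CPM (median 86.4) and cKO oocytes from 99.95 to 451 CPM (median 307). Both pairs of ranges overlapped, and V1126_2 and V1126_3 were again the 2 RiboMinus cKO oocytes that did not exceed all controls. Pttg1 rose by 1.57 in RiboMinus libraries (edgeR adjusted p 0.0036), its polyA fold change was -0.18, and its ratio difference was -1.75 (SE 0.34, edgeR adjusted p 0.20). Without V1126_2 and V1126_3 the ratio difference was -2.10 (edgeR adjusted p 0.016). It lay between -1.95 (without V1126) and -1.51 (without V1131) when a female was left out.

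The plasma glutathione peroxidase gene Gpx3, the cytochrome c oxidase subunit gene Cox6b2, the mitochondrial membrane protein gene Romo1 and the egg protease gene Astl (ovastacin) also had 5 of 7 RiboMinus cKO oocytes above all controls, again without V1126_2 and V1126_3. These 2 lay within the control range, except for Gpx3 in V1126_2, which lay below it. In RiboMinus libraries Gpx3 ranged from 7.99 to 21.7 CPM in controls and from 7.71 to 55.4 CPM in cKO oocytes. Cox6b2 ranged from 5.44 to 14.5 CPM and from 8.61 to 56.7 CPM, and Romo1 from 2.40 to 6.19 CPM and from 5.91 to 22.2 CPM. Astl ranged from 81.2 to 139 CPM and from 88.8 to 293 CPM. All 4 rose in RiboMinus libraries, by 1.63, 1.81, 1.60 and 0.99 on the log2 scale (edgeR adjusted p 0.0093, 0.0052, 0.0040 and 0.013). Their polyA fold changes were -0.12, 0.13, 0.21 and 0.05, and none was called. The ratio differences were -1.76, -1.68, -1.38 and -0.94, with edgeR adjusted p between 0.97 and 1.0. The RIKEN gene 1700001L05Rik, an uncertain gene model, rose by 1.26 in RiboMinus libraries, with a ratio difference of -0.98. The snoRNA host genes Eif4g2 and Nap1l4, taken for their level, also had 5 of 7 RiboMinus cKO oocytes above all controls. Their ratio differences were -0.22 and -0.25, so this split is not particular to the lower-side genes. Its share over all genes was not computed.

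Hint1 and Rnf141 had the wider gap in polyA libraries. Hint1, a nucleotide phosphoramidase gene, ranged from 212 to 297 CPM (median 244) in polyA controls and from 83.0 to 163 CPM (median 115) in polyA cKO oocytes, without overlap. In RiboMinus libraries it ranged from 11.2 to 24.2 CPM (median 16.9) in controls and from 23.0 to 38.1 CPM (median 25.8) in cKO oocytes, with 6 of 7 above all controls. Hint1 fell by 1.12 in polyA libraries (edgeR adjusted p 0.040), its RiboMinus fold change was 0.62 (adjusted p 0.24), and its ratio difference was -1.74 (SE 0.43, adjusted p 0.97). Rnf141, a RING finger protein gene, ranged from 238 to 288 CPM in polyA controls and from 88.3 to 136 CPM in polyA cKO oocytes, again without overlap. Its RiboMinus ranges, 154 to 290 CPM in controls and 151 to 217 CPM in cKO oocytes, overlapped. Rnf141 fell by 1.34 in polyA libraries (edgeR adjusted p 0.00045), with a ratio difference of -0.93 (SE 0.22). Pecr, a peroxisomal reductase gene of fatty acid metabolism, had polyA and RiboMinus fold changes of -0.54 and 0.43, neither called, and a ratio difference of -0.98.

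The oocyte-secreted growth factor genes Gdf9 and Bmp15 had ratio differences of -0.84 (SE 0.25) and -0.71 (SE 0.21), with unadjusted p of 0.0027 and 0.0031 and neither called. In polyA libraries Gdf9 ranged from 4279 to 5821 CPM in controls and from 4136 to 5669 CPM in cKO oocytes. In RiboMinus libraries it ranged from 778 to 3932 CPM (median 1952) in controls and from 975 to 4549 CPM (median 4442) in cKO oocytes, with 5 of 7 cKO oocytes above all controls. Gdf9 rose by 0.72 in RiboMinus libraries (edgeR adjusted p 0.032). Over the 21 oocyte markers tested the median ratio difference was -0.21, 4 of 21 were positive and none was called.

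On the higher side the genes with the smallest p were Gm10801, Gm10717, Snord118 and Gm10800. Among genes of at least 3 mean log2 CPM, mitochondrial mRNAs were 5 of the 10 with the smallest p: mt-Nd1, mt-Nd2, mt-Nd5, mt-Nd4 and mt-Nd6. Genes of the mitochondrial genome had positive ratio differences for 22 of 22 tested members, beside 50.2% of all genes, with a median of 1.53. By kind the medians were 1.35 for 7 mRNAs, 0.21 for 2 rRNAs and 2.03 for 13 tRNAs. None was called, and 12 of 22 had an unadjusted p under 0.05. Of the 37 mitochondrial genes, 15 did not pass the filter on low counts, and 10 of those had no count at all. The genes share 1 genome and long joint precursors, so they are not independent. Read assignment between adjoining mitochondrial genes on the same strand is uncertain.

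The RiboMinus side held most of that difference. In RiboMinus libraries all 22 had a negative fold change (median -1.53) and 7 fell, beside 0.788% of all genes: mt-Tf, mt-Nd5, mt-Tq, mt-Nd6, mt-Tm, mt-Tt and mt-Tl2. Without V1126_2 and V1126_3, 18 of 22 fell in RiboMinus libraries, beside 3742 of 21542 genes called there, 1742 of them higher. The median ratio difference in that fit was 1.74 with 22 of 22 positive. The count of positive members fell to 19 of 22 without V1133 or V857, to 20 without V1131 or V889 and to 21 without V888, and was 24 of 27 with no filter. In polyA libraries the median was 0.17 and none was called. mt-Nd5, a subunit of respiratory complex I, ranged from 1108 to 7516 CPM (median 3911) in RiboMinus controls and from 1163 to 2723 CPM (median 1675) in RiboMinus cKO oocytes. In polyA libraries it ranged from 161 to 434 CPM (median 288) in controls and from 160 to 465 CPM (median 350) in cKO oocytes. The ranges overlapped in both types. mt-Nd5 fell by 1.25 in RiboMinus libraries (edgeR adjusted p 0.037), with a ratio difference of 1.52 (SE 0.44, unadjusted p 0.0023).

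mt-Nd1, another subunit of complex I, had the smallest p of the mitochondrial genes. It ranged from 243 to 631 CPM (median 480) in polyA controls and from 364 to 1461 CPM (median 750) in polyA cKO oocytes, with 11 of 15 cKO oocytes above all controls. In RiboMinus libraries it ranged from 748 to 4118 CPM (median 2433) in controls and from 684 to 1867 CPM (median 1437) in cKO oocytes. Its ratio difference was 1.54 (SE 0.37, edgeR adjusted p 0.97), and neither fold change was called. The ratio differences of mt-Nd2 and mt-Nd4 were 1.496 (SE 0.42) and 1.35 (SE 0.40), and that of mt-Nd6, the mRNA encoded on the opposite strand, was 1.00 (SE 0.36).

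The 3′ ends of 2 of these mRNAs are shown because they differ in what an added tail must supply. In the annotation mt-Nd5 ends with a complete stop codon, and mt-Nd4 ends with the single base T, so that its stop codon is completed only by added A. Capitals mark these last bases.
mt-Nd5: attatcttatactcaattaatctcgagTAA
mt-Nd4: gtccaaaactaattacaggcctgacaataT
mt-Cytb likewise ends 1 base past whole codons, and its ratio difference was 1.03 (SE 0.38; 0.65 without V1131).

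As a share of all gene counts, mitochondrial RNA ranged from 0.238% to 0.417% (median 0.328%) in polyA controls and from 0.224% to 0.590% (median 0.403%) in polyA cKO oocytes. In RiboMinus libraries the share ranged from 1.02% to 3.98% (median 2.704%) in controls and from 1.19% to 2.22% (median 1.75%) in cKO oocytes. Ranges overlapped in both. The female means were 0.470% and 0.386% (polyA cKO), 0.362% and 0.303% (polyA control), 1.95% and 1.46% (RiboMinus cKO), and 2.23% and 3.11% (RiboMinus control), so that female means did not overlap in either type. The difference of log2 shares was 0.91, with a two-sided exact permutation p of 0.056 (adjusted over 8 RNA classes 0.22). That p is the smallest that 36 arrangements of the females can give. The share of long intergenic and antisense RNA had the same p, with a difference of -0.20, and the other 6 classes had adjusted p of 0.59 or more. Fewer mitochondria, less RNA in each and more of other RNA cannot be told apart in these shares.

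**Figure D3:**
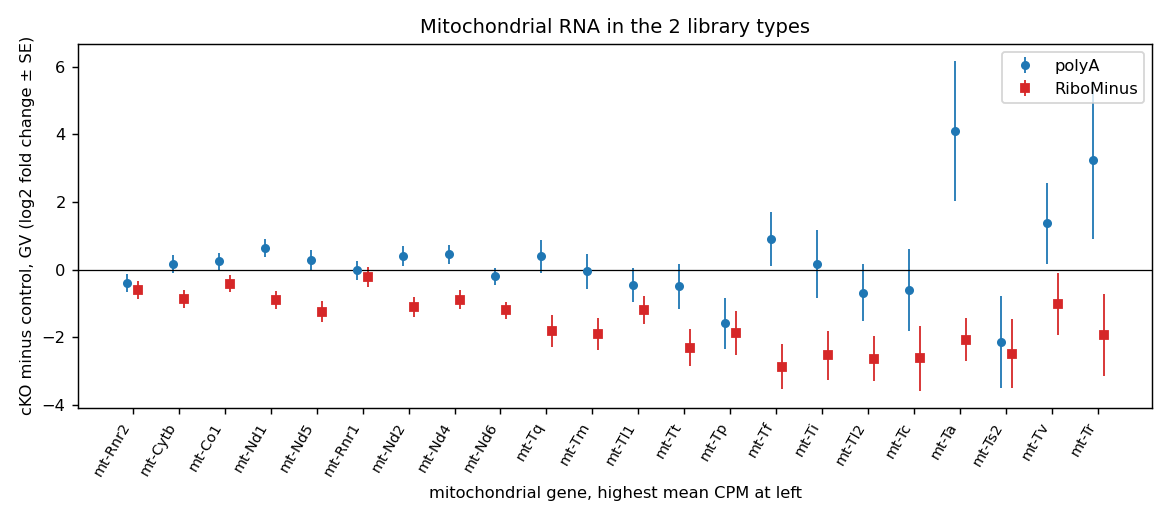
Log2 fold change of cKO over control with its SE in polyA (circles) and RiboMinus libraries (squares) for the 22 tested mitochondrial genes, with the highest level at the left. All RiboMinus points lie below 0 and below the polyA point of the same gene.

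The other higher-side genes among those 10 were Gm10800, Cdkn2aipnl, Cobl, Nprl3 and Myo19, none called. Cdkn2aipnl separated the genotypes in polyA libraries, with 47.2 to 66.7 CPM (median 57.3) in controls and 68.7 to 137 CPM (median 95.8) in cKO oocytes. Its RiboMinus ranges overlapped (71.0 to 130 CPM in controls, 50.5 to 85.8 CPM in cKO oocytes), and its ratio difference was 1.17 (SE 0.34). Cobl, an actin nucleator gene, separated the genotypes in RiboMinus libraries, with 51.2 to 117 CPM (median 71.8) in controls and 6.44 to 31.0 CPM (median 10.3) in cKO oocytes. In polyA libraries its controls spread from 0.156 to 35.3 CPM around the cKO oocytes (3.20 to 20.2 CPM). Cobl fell by 2.52 in RiboMinus libraries (edgeR adjusted p 0.0063), with a ratio difference of 1.89 (SE 0.59). Nprl3, a subunit of an inhibitor of mTOR signalling, and Myo19, a myosin of mitochondria, had ratio differences of 1.16 (SE 0.39) and 1.07 (SE 0.40), the latter 0.698 without V857.

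The only gene called for the ratio itself, Gm10801, is a predicted protein-coding gene at chr2:98662237-98664083 on the + strand, an uncertain gene model. In polyA libraries it was near the detection limit, with 8 counts over 7 controls (0.0 to 0.699 CPM) and 125 counts over 15 cKO oocytes (0.265 to 3.24 CPM, median 0.702). In RiboMinus libraries cKO oocytes ranged from 2.08 to 37.2 CPM (median 14.1), and controls from 7.12 to 1240 CPM (median 127). Of the 8 RiboMinus controls, 4 held 233, 583, 960 and 1240 CPM, 2 from each female, and the other 4 held 7.12 to 20.7 CPM, within the cKO range. Gm10801 fell by 4.57 in RiboMinus libraries (edgeR adjusted p 0.0022), and its ratio difference was 7.12 (SE 1.05, edgeR adjusted p 0.027). The 2 control females averaged 161 and 487 CPM, and the cKO females 16.8 and 10.6 CPM. Leaving out V1126, V1131, V1133, V857, V856 or V889 ended the call (edgeR adjusted p 0.051 to 0.67), and leaving out V1132 or V888 kept it (0.0054 and 0.025). The ratio difference lay between 6.10 and 8.31 in all 8 of these fits. The call also ended with only the 8 GV females (adjusted p 0.60), with limma's voom and with the female as a random block (1.0 in both), and the DESeq2 Wald test gave the gene no adjusted p. The 1 gene that voom called was Snord118 (adjusted p 0.0052).

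Gm10801 shares sequence with other predicted genes. Of its 25-base words, 35.1% also occur in Gm10800 and 28.6% in Gm10717, so reads of these genes may be split or lost between them. Gm10800 had a ratio difference of 5.34 (SE 1.05, edgeR adjusted p 0.20) and RiboMinus levels of 29.2 to 4393 CPM in controls and 7.35 to 144 CPM in cKO oocytes. Gm10717, looked up after its values were seen, had a ratio difference of 7.67 (SE 1.30, edgeR adjusted p 0.054).

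Genes of the exosome itself and genes whose products handle poly(A) tails had median ratio differences near that of all genes. Of 27 exosome subunits and cofactors, none had an unadjusted p under 0.05, and the median was 0.13. Apart from Exosc10, only Srrt (ARS2, which links the cap-binding complex to the exosome) was called in either library type, and it rose by 1.31 in polyA and 0.87 in RiboMinus libraries. The exosome cofactors with the highest levels, Mphosph6, Zcchc8 and Tent4a, had ratio differences of 0.04 (SE 0.33), -0.13 (SE 0.27) and -0.25 (SE 0.25). Of 32 poly(A) polymerases, terminal transferases and cleavage factors, 1 had an unadjusted p under 0.05, Cpsf7 (1.69; 0.87 without V857, 2.55 without V1131), and the median was -0.10. Cpeb2, a cytoplasmic polyadenylation factor, rose by 2.69 in polyA and 3.78 in RiboMinus libraries. Its ratio difference was -1.09, and lay between -1.91 (without V857) and -0.055 (without V1131) when a female was left out. In polyA libraries 2 of the 32 rose (2.05% of all genes), Cpsf7 by 3.23 and Cpeb2, and 3 fell (2.31%), Tent5c, Papolg and Fip1l1.

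Among 28 deadenylases and poly(A) binding proteins no ratio difference had an unadjusted p under 0.05, 9 of 28 were positive and the median was -0.10. In polyA libraries 2 of the 28 were called higher (2.05% of all genes) and 3 lower (2.31%). In RiboMinus libraries 3 were called higher (2.23% of all genes) and 1 lower (0.788%). Pabpc1, the main cytoplasmic poly(A) binding protein, rose by 2.78 in polyA and 2.42 in RiboMinus libraries. Zfp36l2, which recruits deadenylases to AU-rich mRNAs, rose by 1.51 and 1.95. Btg4, an adaptor of the CCR4-NOT deadenylase in maturing oocytes, fell by 0.82 and 0.72. Cnot7, a catalytic subunit of CCR4-NOT, and Paip1 fell in polyA libraries, by 1.49 and 0.95, and Tob1 rose by 1.52 in RiboMinus libraries. Their ratio differences lay between -0.61 (Cnot7) and 0.36 (Pabpc1), and that of Cnot7 between -1.15 (without V888) and -0.0064 (without V1126) when a female was left out. The 16 maternal mRNAs known for tail lengthening at maturation had a median ratio difference of -0.10, with 0 of 16 at an unadjusted p under 0.05. Tissue plasminogen activator Plat and Dcp1a, classical members, had values of 0.06 (SE 0.31) and -0.10 (SE 0.31), both with a 95% interval within 1 log2 unit of 0, as had 11 of the 16.

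Replication-dependent histone mRNAs end in a stem-loop in place of a poly(A) tail. Of 55 tested genes, 7 were called higher in RiboMinus libraries (2.23% of all genes) and 2 higher in polyA libraries (2.05% of all genes), and 0 lower in either. The polyA count is near the share over all genes. The median fold changes were 1.00 in RiboMinus and 1.32 in polyA libraries, and the median ratio difference was 0.16, with 1 of 55 at an unadjusted p under 0.05 (Hist1h1c, -1.91; -1.08 without V1131, -1.20 without V889). Hist1h1e, a linker histone, rose by 5.04 in RiboMinus and 4.03 in polyA libraries, with a ratio difference of -1.002. That value lay between -2.52 (without V888) and -0.12 (without V889) when a female was left out. Hist1h1a, with 6.22 to 18.1 CPM in polyA controls and 614 to 1331 CPM in RiboMinus controls, had a ratio difference of 0.50 (SE 0.48), which lay between -0.31 and 1.02 when a female was left out.

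The 86 tested cytosolic ribosomal protein genes had a median ratio difference of 0.19, and 0 had an unadjusted p under 0.05. Rpl4 and Rpl32 had ratio differences of 0.45 (SE 0.33) and 0.50 (SE 0.42), and of 0.038 and -0.10 without V888. The larger lists lay close to all genes, with medians of -0.03 for 377 zinc finger genes, 0.05 for 5055 predicted genes, -0.02 for 1285 RIKEN genes and -0.03 for 168 opposite-strand genes. Over the settings tried, the medians of several lists changed sign: histones (-0.45 to 0.99), snoRNA hosts (-0.23 to 0.47), ribosomal proteins (-0.15 to 0.44), deadenylases (-0.24 to 0.013), poly(A) polymerases (-0.30 to 0.0034) and maternal mRNAs (-0.42 to 0.11). So did those of the 4 larger lists. The median of the mitochondrial genes stayed between 1.25 and 1.89 and that of the oocyte markers between -0.56 and -0.027.

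**Figure D4:**
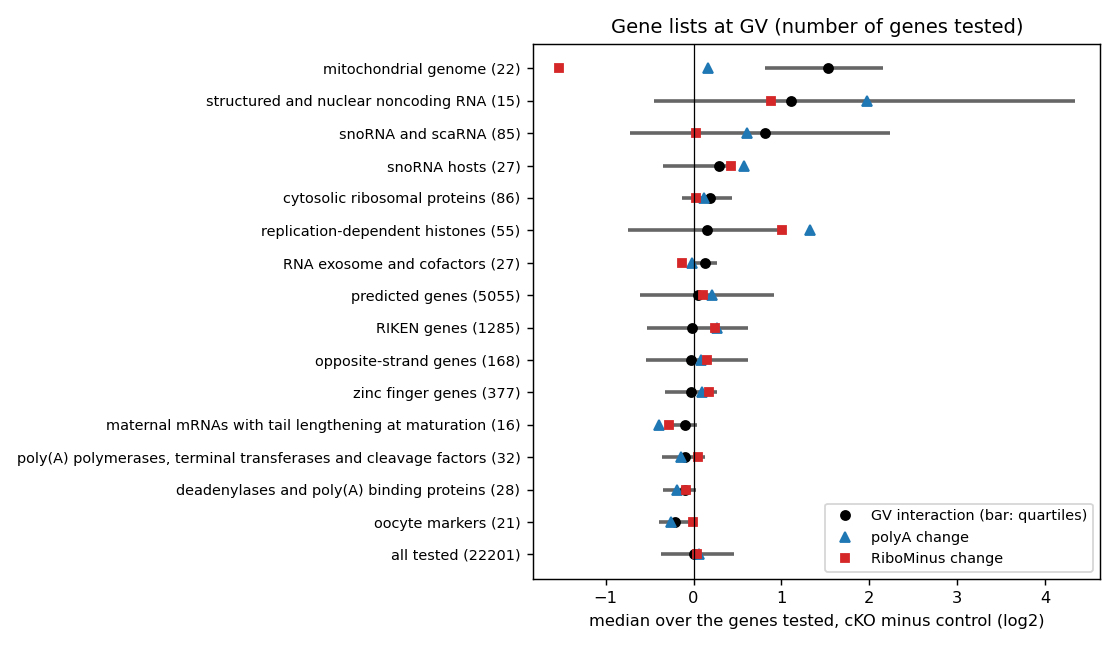
Median ratio difference (black point, with a bar over the quartiles), median polyA and median RiboMinus log2 fold change (coloured points) of each gene list with at least 10 tested members, beside all 22201 genes. The mitochondrial genes (median 1.53) and the structured noncoding RNAs (1.11) lie to the right and the oocyte markers (-0.21) to the left, and the median of the snoRNAs (0.81) changed sign over the settings tried.

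No marker of another cell type was called in the 3 GV contrasts. The 13 tested granulosa and cumulus markers summed to 113 to 152 CPM in polyA controls, 94.9 to 150 CPM in polyA cKO oocytes, 150 to 189 CPM in RiboMinus controls and 136 to 278 CPM in RiboMinus cKO oocytes. The 4 tested theca and stroma markers summed to 0.0 to 3.89 CPM in polyA controls, 0.489 to 7.34 CPM in polyA cKO oocytes, 1.36 to 3.53 CPM in RiboMinus controls and 1.89 to 4.07 CPM in RiboMinus cKO oocytes, with medians of 2.22, 5.51, 2.31 and 2.75 CPM. All 4 tested had positive ratio differences, with a median of 3.13, from 0.10 (Star) to 6.34 (Col1a2), and 1 had an unadjusted p under 0.05. The 3 tested of 9 blood and immune markers (Pecam1, Cd68 and Kdr) summed to 70.7 to 87.7 CPM in polyA controls, 56.7 to 127 CPM in polyA cKO oocytes, 58.7 to 79.9 CPM in RiboMinus controls and 67.9 to 134 CPM in RiboMinus cKO oocytes. Most of that was Pecam1, an endothelial adhesion gene, with counts in all 37 libraries and group medians of 66.05 to 89.6 CPM. Cd68, of macrophages, had counts in 37 libraries, and Kdr, an endothelial receptor gene, in 25. Hba-a1 and Hbb-bt, genes of haemoglobin, had no count in the 37 libraries, and Ptprc, the pan-leukocyte gene, had 4. The oocyte markers summed to at least 8660 CPM in each library. The part of attached cells in the values above was not tested.

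The same ratio difference was computed in MII eggs, in other females, where the RiboMinus control group is 1 female of 3 eggs. Genotype and female cannot be told apart there, so the MII values are set beside the GV values only. At MII 2533 of the 22201 genes were called (11.4%), 1512 of them higher (6.81%). Snord118 had 94 polyA counts in cKO and 0 in control eggs (at least 16.2-fold), and an MII ratio difference of 10.25. The size of that value depends on the prior count, since the polyA control eggs held no read. In polyA libraries after 3 hours in culture (GV3h), where 4587 genes were called (20.7%), Snord118 had 626 counts in cKO and 0 in control oocytes (at least 111-fold) and Snord13 311 and 0 (at least 55.1-fold). At MII Snord13 had 6 counts against 1. Ribosomal protein genes had a median of 1.58 at MII and 26 of 86 were called higher there, beside 0 of 86 at GV. The mitochondrial genes had a median of 0.97 at MII, with 1 called. Swi5 had -1.45 at GV and 2.43 at MII, and Hint1 had -1.74 and 2.64. The GV value minus the MII value passed the threshold for 482 genes (2.17%), but stage and the 1 female cannot be told apart there, so nothing is read from it.

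**Figure D5:**
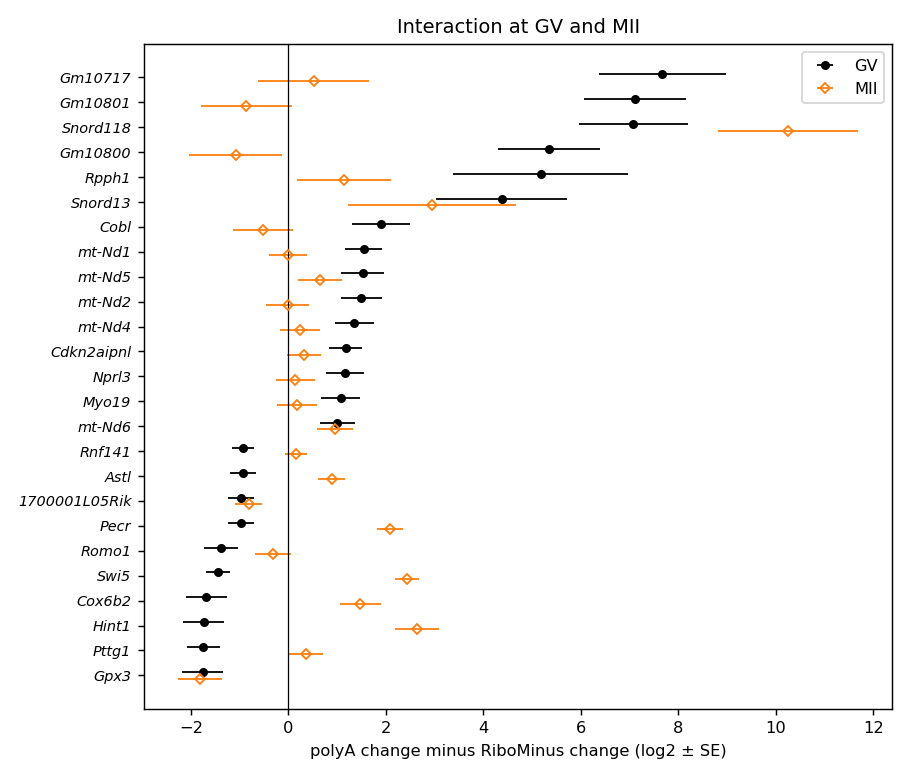
Ratio differences on a log2 axis with their SE at GV (filled circles) and at MII (open diamonds) for named genes. Snord118 is positive at both stages, and Swi5 and Hint1 are negative at GV and positive at MII, where the RiboMinus controls are 1 female.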

How the data were processed

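Each sample is 1 oocyte. Its group comes from the stage, genotype and library type in the labels, and its female from the title. The deposited values are the authors' unnormalized read counts for Ensembl mouse genes, 1 file for each library, whose 5 summary lines were left out. The submitters' processing notes name mm10, cutadapt 2.5, FastQC 0.11.8, STAR 2.7.2a, SAMtools 1.9, HTSeq 0.9.1, R 3.5.1 and DESeq2 1.24.0. The strand setting is not given in the sources used here, so overlapping and antisense genes are uncertain. Per the labels' protocols, polyA RNA was amplified and built into Nextera libraries, and RiboMinus libraries were made with Ovation Solo. The files hold 0 spike-in lines, so all values are relative to the other RNA of a library. Of 55573 gene IDs, 55394 had a symbol and 55480 were in GENCODE M21, the source of coordinates and sequences. No 2 libraries were identical (highest correlation of log2 counts 0.982).

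Counts were summed per female over 23 females in 10 polyA and RiboMinus groups (GV, GV3h and MII), scaled by TMM and fitted in edgeR 4.0.16 (R 4.3.3; estimateDisp, glmQLFit and glmQLFTest, two-sided) with 1 mean per group. Genes were kept by filterByExpr on the 8 GV sums. The other groups share only in the estimate of the spread. A scale factor common to 1 library type cancels in the ratio difference. The test was checked on simulated counts with known changes. Oocyte CPM values were scaled by TMM over the GV oocytes. Intervals of pooled counts are exact at 95% and cover counting error only, and a floor is 3 counts over the group. Class shares were averaged per female on a log2 scale and compared by an exact permutation test. Python 3.11.15, numpy 2.4.6, pandas 2.3.3, scipy 1.17.1 and matplotlib 3.10.9 were used.

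Named genes were Exosc10, the 12 highest and 12 lowest called genes with a mean log2 CPM of at least 3, a mean of at least 1 CPM in a genotype of each library type and the same sign for all 16 choices of 1 female per group (0 in each direction met this), in their place 10 in each direction by p, list members called for the ratio difference, and up to 3 members of each list by level. A member that this rule names is not reported here. Snord118, Snord13, Gm10717, mt-Tf and other genes outside that rule were chosen after their values were seen. The comparison and the gene lists were chosen with earlier results of these data known. Alternatives were DESeq2 1.42.0 (size factors or Wald test), limma 3.58.1 (voom with weights per library type, or oocytes with the female as a random block), library totals, TMM within library type, no filter, a mean of at least 50 counts, only the GV or MII females, oocytes as replicates and leaving out each female.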

Additional observations from a re-analysis of the deposited data

Results flagged for a closer look

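In 44 groups of 4 to 10 oocytes of the genes described, the gap of the highest or lowest oocyte to its neighbour was tested against Dixon's 95% value, and 2 groups passed it. Chance passes about 1 in 20. The 2 were Snord118 in polyA controls, where the highest oocyte had 0.185 CPM from 1 count and the others 0, and Gpx3 in RiboMinus controls, where the highest oocyte had 21.67 CPM.

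The ratio difference at GV minus that at MII was called by edgeR for 10 of 60 gene records followed, and for 482 of all 22201 genes (2.17%). Many of the 60 were chosen for their GV values, which are 1 term of this difference, so a surplus among them is no finding. The difference was 7.978 for Gm10801, 6.425 for Gm10800 and 7.154 for Gm10717. It was -3.875 for Swi5, -2.101 for Pttg1, -4.377 for Hint1, -3.158 for Cox6b2, -3.059 for Pecr, -1.827 for Astl and -1.676 for Bmp15. All MII RiboMinus controls came from 1 female, so a difference between stages and that female cannot be told apart.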

How the results depend on the processing

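The count of genes called for the ratio difference, 1 in the fit reported, was 6 with the DESeq2 Wald test, 4 with a mean of at least 50 counts, 47 with no filter, 0 with only the 8 GV females (edgeR, 556 genes at an unadjusted p under 0.05), 163 with oocytes as replicates, 2 with the female as a random block and 8 without oocytes V1126_2 and V1126_3. It ranged from 0 to 3 when a female was left out. The genes called were not always the same: Gm10801 was not among those of the Wald test or the random block (Hint1 and Arhgef15), and the 1 gene called with voom was Snord118. The polyA genotype count of 969 was 2400 with the Wald test, 2005 with no filter, 2 with only the GV females, 6455 with oocytes as replicates, 586 with the random block and 2437 with voom, and ranged from 4 (without V889) to 1300 when a female was left out. The RiboMinus count of 671 was 2373 with the Wald test, 1074 with at least 50 counts, 2002 with no filter, 5 with only the GV females, 5984 with oocytes as replicates, 2508 with the random block, 414 with voom and 3742 without V1126_2 and V1126_3, and ranged from 3 (without V1133) to 2115 (without V1126). The MII count of 2533 was 929 with only the MII females.

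Of 60 gene records whose ratio difference was followed, 47 kept its sign in all 19 settings, and 31 changed sign or moved by over 1.5 times when a female was left out. Among the 13 exceptions were Exosc10 (-0.48 to 0.099 when a female was left out, 0.56 without V1126_2 and V1126_3), Pabpc1 (-0.12 without V1126 to 1.07), mt-Rnr2 (-0.16 without V1133 to 0.51) and 1 record of Rmrp (-0.99 to 0.22 without V1131). The other 9 changed sign when a female was left out: Dcp1a (-0.45 to 0.22), Paip1 (-0.42 to 0.42), Zcchc8 (-0.45 to 0.16), Plat (-0.30 to 0.43), Mphosph6 (-0.25 to 0.38), Btg4 (-0.43 to 0.22), Tob1 (-0.94 to 0.19), Hist1h1a (-0.31 to 1.02) and Rpl32 (-0.10 to 0.92). Dcp1a, Btg4 and Paip1 also did so with library totals (0.010, 0.018 and 0.069) and without V1126_2 and V1126_3 (0.11, 0.23 and 0.46), Dcp1a, Btg4 and Zcchc8 with oocytes as replicates (0.051, 0.026 and 0.015), and Paip1 with TMM within library type (0.021), no filter (0.00035), the random block (0.053) and voom (0.023). Among the class shares, the difference of log2 shares changed sign for other protein-coding genes without mitochondrial genes in the total (0.0077), and when a female was left out for ribosomal proteins (-0.0082 to 0.62), pseudogenes (-0.063 to 0.15) and histones (-0.35 to 0.42). The cause was not tested. No paired analysis was possible because each female belongs to 1 group, and the oocyte numbers that the groups share only number the oocytes within a female.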
